A study of Mus musculus with 6 samples.

Results

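The genes described here carry out DNA repair or signal DNA damage in mouse cells. They were chosen by name, as every probe whose annotation symbol was one of 37 genes of homologous recombination, mismatch repair, the Fanconi pathway, the damage checkpoint, base excision, end joining, nucleotide excision and translesion synthesis. Of these, 33 had at least 1 probe, with 61 probes in all, out of 16590 named genes on the array. A probe was kept where each array of some group gave a detection p under 0.05, which left 48 probes of 29 members, which were tested within a fit of 10748 genes. Xrcc2, Fanca, Fance and Atr were not analysed here. Palb2, the recombination partner of Brca1 and Brca2, Xrcc5, a subunit of the Ku heterodimer, and the glycosylase genes Neil1 and Neil3 each had 1 probe, which was not kept, and no change is given for them. Neil1 was above background on piPSC replicate 1 and ES replicate 1, and the probes of Palb2, Xrcc5 and Neil3 on none of the 6 arrays. Of the 29 tested members, 7 passed the filter only through pluripotent cells (Brca1, Bard1, Xrcc3, Exo1, Fancg, Ogg1 and Ddb2), so that counts over the tested members lean towards higher values in those cells.

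The arrays covered 3 groups with 2 arrays each, and the labels name no deletion or drug in any of them. piPSC are protein induced pluripotent stem cells, made with recombinant proteins according to the series title. OG2-MEF are fibroblasts of mouse embryos at E13.5 that carry a green fluorescent protein transgene driven by the Oct4 promoter, grown on gelatin in medium with serum. ES are embryonic stem cells of the R1 line, a single established line. The labels give piPSC and ES the same growth text, with irradiated embryonic fibroblasts as feeders, serum and leukemia inhibitory factor, so RNA of irradiated feeders could be present in both. Arrays of a group are labelled as biological replicates, with no word on separate cultures, so the spread behind each p-value may be technical. In bulk RNA, fewer cells of a type and less RNA per cell cannot be told apart.

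Total intensity lay between 13019817 and 19598206 per array, and 46.9% to 52.4% of probes were above background. ES replicate 2 stood apart: 495 genes were more than 2-fold dimmer there than on ES replicate 1 and 27 were brighter, against at most 2 genes in either direction within the piPSC or OG2-MEF pair. Results with ES are therefore given with and without each ES array where the call depends on it. The group labels were checked against marker lists. All 10 pluripotency markers were above background on both piPSC and both ES arrays, while 7 of them, among them Pou5f1, Sox2 and Esrrb, were on neither OG2-MEF array. The summed level of 9 fibroblast markers (linear normalized intensity) was 63386 to 66327 in OG2-MEF, 10076 to 11418 in piPSC and 5993 to 8908 in ES. Of these 9 markers, 7 were above background on both arrays in piPSC and in ES, and the part of fibroblast or feeder RNA in the levels below was not tested. Macrophage markers summed to 482 to 484, 232 to 249 and 162 to 210 in the same order (3, 2 and 0 of 6 above background on both arrays), endothelial markers to 120 to 121, 637 to 746 and 454 to 732 (0, 2 and 2 of 5), trophoblast markers to 588 to 630, 782 on each piPSC array and 1864 to 2426 (3, 5 and 5 of 6), and endoderm markers to 369 to 374, 241 to 263 and 218 to 294 (2 of 5 in each group). The defining leukocyte gene Ptprc and endothelial gene Cdh5 were below background on every array.

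Cells mend double-strand breaks by homologous recombination, in which Brca1 and Brca2 prepare and load the recombinase on a sister chromatid, or by end joining, which starts with the Ku heterodimer. Single damaged bases are cut out by glycosylases and the nuclease Apex1, mismatches left by replication are found by Msh proteins, and the Fanconi proteins unhook crosslinks between strands. The kinases Atm, Atr, Chek1 and Chek2 signal damage to the cell cycle machinery. Many of these genes are transcribed around DNA synthesis under E2F transcription factors, and pluripotent cells are known for a short first gap phase and a large share of cells in synthesis.

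Because many members rose together, their promoters (RefSeq, GRCm38.p6, 250 bases before to 50 after the start) were searched on both strands for 4 forms of the E2F element, TTTCCCGC, TTTGGCGC, TTTCGCGC and TTTGCCGC, and for the cell cycle element TTTGAA and the CCAAT box. Promoters were at hand for 30 of the 37 members. A member was counted if any promoter of its symbol matched, while the shares are over single promoters, so these are unlike measures. TTTCCCGC was present in those of 6 members (Brca2, Bard1, Msh6, Fancg, Chek2 and Xrcc6), and in 1.07% of all 32851 promoters. TTTGGCGC (0.514% of all) and TTTCGCGC (0.323%) occurred in that of Msh3 alone, where they overlap, and TTTGCCGC (0.441%) in none. TTTGAA occurred in Bard1 (17.9% of all) and CCAAT in 17 members (37.4% of all). The stretches below show the element in capitals on the gene's strand. They cover 4 members that rose in both pluripotent cell types, Msh3, which rose in piPSC, and Fancg, for which no change was found. A match describes the letters only. Fancg lay close to background, so that a change in its level could have been missed. GCGGGAAA is TTTCCCGC read on the opposite strand.
Brca2 (chr5:150522423-150522490, + strand): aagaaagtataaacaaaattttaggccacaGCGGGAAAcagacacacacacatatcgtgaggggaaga
Bard1 (chr1:71103144-71103211, - strand): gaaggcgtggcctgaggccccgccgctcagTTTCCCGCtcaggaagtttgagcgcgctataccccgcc
Chek2 (chr5:110839801-110839868, + strand): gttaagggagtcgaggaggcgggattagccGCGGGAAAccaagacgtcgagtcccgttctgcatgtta
Xrcc6 (chr15:82016293-82016360, + strand): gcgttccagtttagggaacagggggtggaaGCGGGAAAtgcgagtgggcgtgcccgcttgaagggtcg
Msh3 (chr13:92355168-92355235, - strand): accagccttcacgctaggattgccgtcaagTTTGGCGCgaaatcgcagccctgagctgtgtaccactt
Fancg (chr4:43010316-43010383, - strand): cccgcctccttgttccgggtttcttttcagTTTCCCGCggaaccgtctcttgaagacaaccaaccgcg

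The first comparison asks how repair genes differed between the induced cells and fibroblasts, and the second asks the same of R1 ES cells, against the same 2 fibroblast arrays. Most of the 29 tested members, a list chosen with earlier results of these data known, were higher in both pluripotent cell types. Among 70 further repair and checkpoint genes, described below, 22 rose in piPSC and 30 in ES. In piPSC, 19 of 29 rose and 1 fell, with a median log2 fold change of 1.5. Over all genes the share called was 41.4% (20% higher, 21.4% lower), and the median was 0.02. In ES, 22 rose and 2 fell (median 2.05), where 46.7% of all genes were called (25.1% higher, 21.6% lower) and the median was 0.15. Changed means an adjusted p under 0.05 (limma, Benjamini-Hochberg over all genes tested) and at least 2-fold. Levels below are normalized log2 intensities, given for replicate 1 and then replicate 2, each on the gene's probe with the highest mean.

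**Figure D1:**
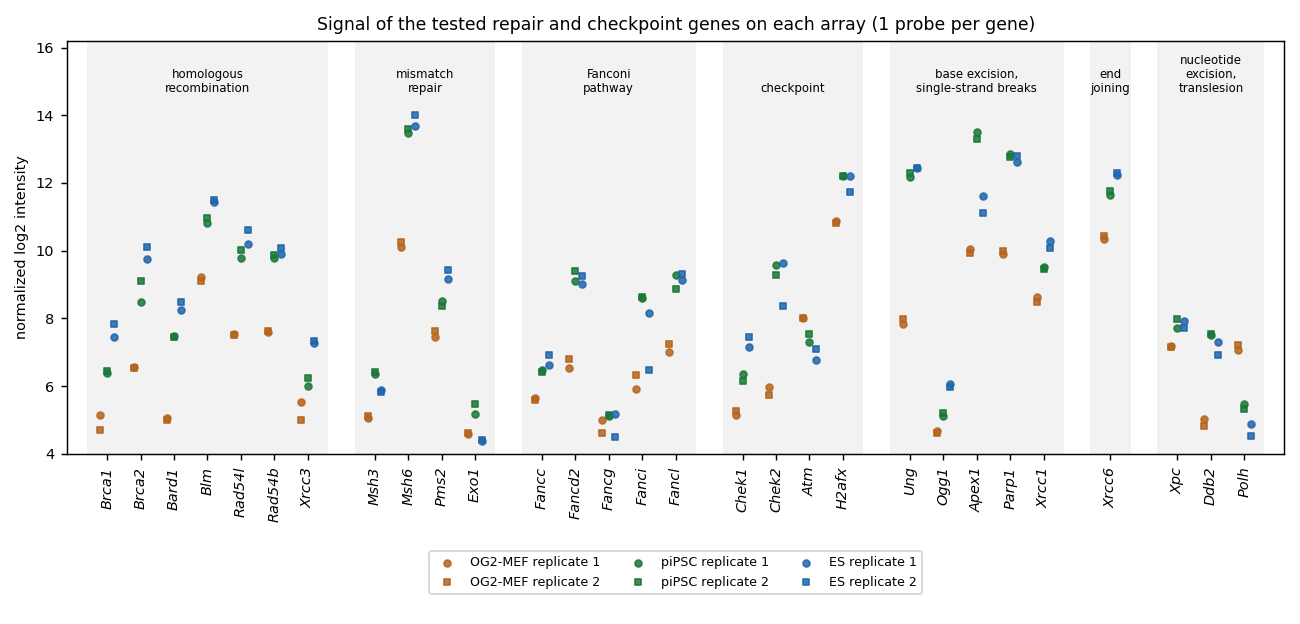
Normalized log2 intensity (vertical axis) of the 29 tested members on each of the 6 arrays, 1 probe per gene, grouped by pathway; circles are replicate 1 and squares replicate 2. The OG2-MEF points lie below the piPSC and ES points for most genes, Atm and Polh lie the other way, and the 2 ES arrays separate for Fanci and Chek2.

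Of the 7 tested homologous recombination genes, 6 rose in piPSC and 7 in ES (median 2.21 and 2.72). Over all genes 20% rose in piPSC and 25.1% in ES. Brca1, Bard1 and Xrcc3 passed the filter only through pluripotent cells, so these counts and medians lean towards rises. Of 18 further recombination genes tested, 6 rose in piPSC and 6 in ES, with 12 not called in each (median 0.55 and 0.81). Brca1, a scaffold of break repair and checkpoint signalling, lay at 5.14 and 4.70 in OG2-MEF, 6.39 and 6.45 in piPSC, and 7.46 and 7.83 in ES. It rose by 1.5 in piPSC (SE 0.20, adjusted p = 0.00069) and by 2.72 in ES (adjusted p = 4.5e-05). The fibroblast value was close to background, since the second OG2-MEF array did not detect it. Bard1, which forms a ubiquitin ligase with Brca1, had signals of 5.05 and 5.00, then 7.48 and 7.44, then 8.24 and 8.48 in the same order of groups. It rose by 2.43 (SE 0.13) and 3.33 in piPSC and ES. Its fibroblast value was also close to background, and the second OG2-MEF array did not detect it. Brca2, the loader of the recombinase, was detected on every array, at 6.56 and 6.53 in OG2-MEF, 8.50 and 9.11 in piPSC, and 9.75 and 10.10 in ES. Its change was 2.26 in piPSC (SE 0.23, adjusted p = 0.0002) and 3.37 in ES, and its other probe gave 2.13 and 3.23. These 3 genes therefore share an order of mean levels, OG2-MEF below piPSC below ES, which each of the 7 tested recombination genes had.

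Rad54l and Rad54b, motor proteins that help the recombinase invade the sister strand, reached closer levels in the 2 pluripotent groups. Rad54l rose from 7.54 and 7.51 in OG2-MEF to 9.78 and 10.01 in piPSC, a change of 2.37 (SE 0.18), and to 10.20 and 10.61 in ES, a change of 2.88. Rad54b lay at 7.61 and 7.63, at 9.78 and 9.89, and at 9.91 and 10.07, with changes of 2.21 (SE 0.13) and 2.37. Blm, the helicase that dissolves recombination intermediates and is mutated in Bloom syndrome in human, lay at 9.23 and 9.12 in OG2-MEF, 10.81 and 10.97 in piPSC, and 11.45 and 11.51 in ES. It rose by 1.72 (SE 0.13) and 2.30, and its second kept probe gave 1.90 and 2.24. Xrcc3, a paralog of the recombinase, was the exception in piPSC. Its signals were 5.53 and 4.99 in OG2-MEF, 6.02 and 6.26 in piPSC, and 7.27 and 7.34 in ES. The second OG2-MEF array did not detect it. The difference of 0.87 in piPSC (SE 0.20, adjusted p = 0.0086) was under 2-fold, but that of 2.05 in ES passed. Without OG2-MEF replicate 1, the brighter of the 2 fibroblast arrays, Xrcc3 passed in piPSC as well.

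In mismatch repair, 2 of 4 tested genes rose in each pluripotent type. Msh6, which recognizes single mismatches, had signals of 10.11 and 10.27 in OG2-MEF, 13.46 and 13.60 in piPSC, and 13.69 and 14.02 in ES. It rose 10.1-fold in piPSC (log2 3.34, SE 0.16, adjusted p = 1e-05) and 12.7-fold in ES (log2 3.66), with 3.35 and 3.75 on its other probe. Msh3, which recognizes larger loops, moved less, from 5.06 and 5.11 to 6.36 and 6.41 in piPSC, a rise of 1.30 (SE 0.12, adjusted p = 0.00013). In ES it lay at 5.90 and 5.82, a difference of 0.77 under 2-fold, and its other probe was below background on both ES arrays. Pms2, a subunit of the nuclease that acts after recognition, lay at 7.44 and 7.64 in OG2-MEF, 8.51 and 8.36 in piPSC, and 9.16 and 9.44 in ES. It rose by 1.76 in ES (SE 0.16, adjusted p = 9.8e-05) and differed by 0.89 in piPSC, under 2-fold. Exo1, the exonuclease that removes the mismatched strand, was above background only in piPSC, at 5.19 and 5.47, and its differences of 0.73 in piPSC and -0.21 in ES were under 2-fold.

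Of the 5 tested Fanconi genes, 3 rose in piPSC (Fancd2, Fanci and Fancl) and 3 in ES (Fancd2, Fancl and Fancc). Fancd2, the protein that is ubiquitinated at crosslinks, went from 6.55 and 6.80 in OG2-MEF to 9.12 and 9.39 in piPSC and 9.01 and 9.24 in ES, with changes of 2.58 (SE 0.17, adjusted p = 3.2e-05) and 2.45. Fancl, the ligase subunit that attaches this ubiquitin, lay at 7.02 and 7.25 in OG2-MEF, 9.30 and 8.86 in piPSC, and 9.14 and 9.30 in ES on the probe used. It rose by 1.94 (SE 0.19) and 2.08. Its second probe rose by 1.79 in piPSC but differed by 0.86 in ES (adjusted p = 0.083), where it lay at 8.72 and 7.50. Fanci, the partner of Fancd2, rose by 2.50 in piPSC (SE 0.50, adjusted p = 0.0044), from 5.90 and 6.33 to 8.59 and 8.64. In ES its arrays disagreed, at 8.15 and 6.47, and the difference of 1.19 did not pass (adjusted p = 0.069); it was 2.03 without ES replicate 2, which passed, and 0.36 without ES replicate 1. Fancc, a subunit of the core complex, lay at 5.64 and 5.58 in OG2-MEF, 6.47 and 6.42 in piPSC, and 6.64 and 6.91 in ES. It differed by 0.83 in piPSC and rose by 1.16 in ES, but only by 0.31 without ES replicate 2, when another probe had the highest mean. Fancg, also of the core complex, lay between 4.50 and 5.18 on all 6 arrays, close to background, and did not pass in either comparison (adjusted p = 0.29 and 0.94).

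Among checkpoint genes the 2 effector kinases and the histone variant rose while Atm went the other way. Chek2, activated by Atm after breaks, showed the largest rise of the tested checkpoint genes, from 5.99 and 5.75 in OG2-MEF to 9.59 and 9.30 in piPSC, a change of 3.57 (SE 0.38, adjusted p = 0.00026). In ES it lay at 9.62 and 8.37, a rise of 3.13, or 2.50 without ES replicate 1. Of its other kept probes, one rose by 1.78 in piPSC and 2.65 in ES. The other was not well above background in OG2-MEF; it was at least 2.61-fold higher in piPSC, and its ES difference of 1.18 did not pass (adjusted p = 0.083), with ES signals of 6.56 and 4.86. Chek1, the effector of Atr at stalled forks, rose by 1.05 in piPSC (SE 0.16, adjusted p = 0.0012), just past 2-fold, and by 2.09 in ES. Its signals were 5.16 and 5.27 in OG2-MEF, 6.37 and 6.17 in piPSC, and 7.16 and 7.46 in ES. Without piPSC replicate 1 or without OG2-MEF replicate 1 the piPSC change of Chek1 fell short of 2-fold. H2afx, the histone variant that is phosphorylated at breaks, had signals of 10.89 and 10.81, 12.21 and 12.20, and 12.21 and 11.72. It rose by 1.35 in piPSC (SE 0.18) and by 1.12 in ES, where the change was 0.87 without ES replicate 1 and no longer 2-fold. Atm, the kinase at the head of the break response, lay at 8.02 and 8.02 in OG2-MEF, 7.29 and 7.55 in piPSC, and 6.79 and 7.09 in ES. It fell by 1.08 in ES (SE 0.16, adjusted p = 0.001) and differed by -0.60 in piPSC, under 2-fold. The ES call ended without ES replicate 1 (-0.92), and the gene's other kept probe differed by -0.58 in ES and -0.09 in piPSC.

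**Figure D2:**
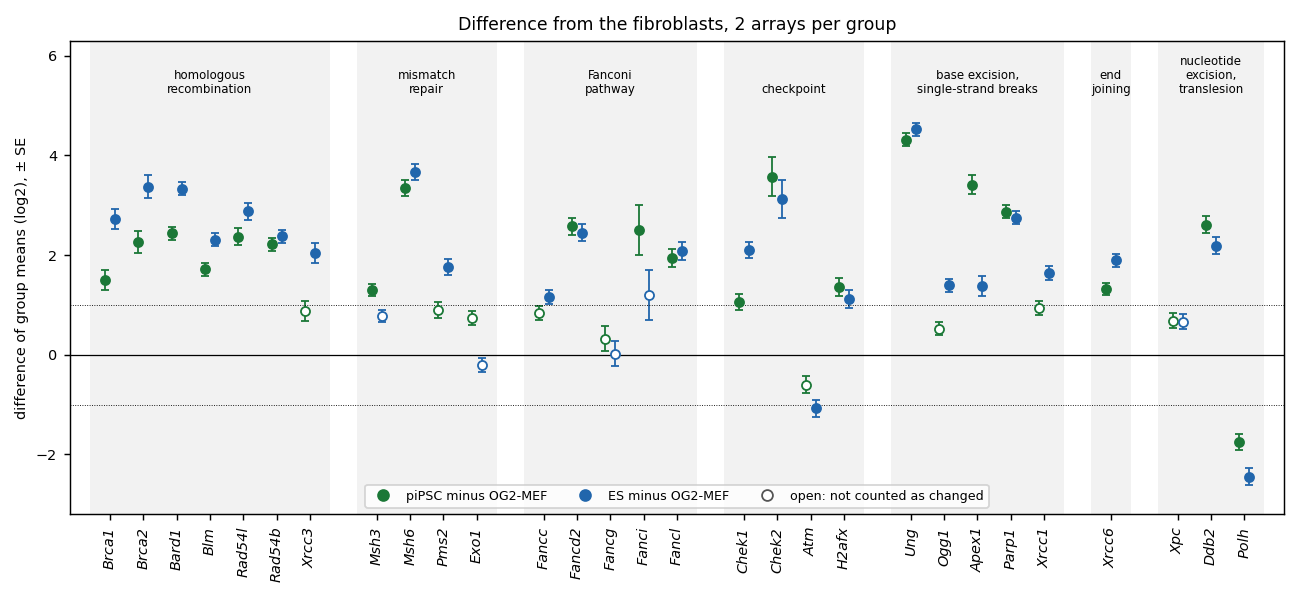
Difference of group means from OG2-MEF in log2 units (vertical axis) for piPSC in green and ES in blue, with bars of 1 SE from the fit and dotted lines at 2-fold; filled points were counted as changed. Ung lies highest in both, at 4.31 and 4.52, and Polh lowest, at -1.75 and -2.44; both sets use the same 2 fibroblast arrays.

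Base excision held the largest rise of all the tested members. Ung, the glycosylase that removes uracil from DNA, lay at 7.84 and 7.99 in OG2-MEF, 12.17 and 12.28 in piPSC, and 12.43 and 12.44 in ES. It rose 19.9-fold in piPSC (log2 4.31, SE 0.13, adjusted p = 2.2e-06) and 23-fold in ES (log2 4.52). Its dimmer probes rose by 1.15 and 3.01 in piPSC, and in ES one rose by 1.17 while the other differed by -0.59. Apex1, the nuclease that cuts at sites without a base, rose 10.6-fold in piPSC, from 10.05 and 9.94 to 13.51 and 13.30 (log2 3.41, SE 0.19, adjusted p = 1.9e-05). In ES it reached 11.62 and 11.13, a rise of 1.38 (adjusted p = 0.00077). Both probes of Apex1 showed the order OG2-MEF below ES below piPSC, the reverse of Brca1 for the pluripotent groups. Parp1, the sensor of single-strand breaks, rose 7.29-fold in piPSC and 6.7-fold in ES, from 9.90 and 10.01 to 12.86 and 12.77 and to 12.61 and 12.79. Xrcc1, the scaffold that Parp1 recruits, lay at 8.63 and 8.48 in OG2-MEF, 9.51 and 9.47 in piPSC, and 10.29 and 10.08 in ES. It rose by 1.63 in ES (SE 0.14, adjusted p = 7.9e-05), and its piPSC difference of 0.94 was just under 2-fold. Ogg1, the glycosylase for oxidized guanine, was not well above background in OG2-MEF and lay at 5.11 and 5.22 in piPSC and 6.07 and 5.98 in ES. It was at least 2.02-fold higher in ES than in OG2-MEF (adjusted p = 0.0001), taking the lowest detected signal as the fibroblast level, and did not reach 2-fold in piPSC.

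In end joining, Xrcc6, which encodes the Ku70 subunit, rose by 1.32 in piPSC (SE 0.12, adjusted p = 0.00014) and by 1.89 in ES. Its probe gave 10.35 and 10.42 in OG2-MEF, 11.64 and 11.76 in piPSC, and 12.25 and 12.31 in ES. A second probe rose by 1.65 and 2.11, but another rose by 1.31 in piPSC and was at least 1.81-fold lower in ES than in OG2-MEF.

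Nucleotide excision and translesion synthesis were mixed. Ddb2, which finds ultraviolet damage in chromatin, is a p53 target in human cells. Its signals lay at 5.04 and 4.82 in OG2-MEF, 7.53 and 7.54 in piPSC, and 7.31 and 6.92 in ES. Ddb2 was not detected on the second OG2-MEF array, so its fibroblast value was close to background. It rose by 2.60 in piPSC (SE 0.17, adjusted p = 3.2e-05) and by 2.19 in ES on this probe, while its 2 other kept probes, not well above background in OG2-MEF, were at least 2.1-fold and 1.89-fold higher in piPSC and did not change in ES (-0.08 and 0.37). Xpc, the sensor of distorted helices, differed by 0.68 in piPSC and 0.66 in ES, under 2-fold in both. Polh, the polymerase that copies past ultraviolet dimers, was the 1 member that fell in both cell types. It lay at 7.06 and 7.22 in OG2-MEF and 5.46 and 5.33 in piPSC, a change of -1.75 (SE 0.16, adjusted p = 0.00014). In ES its signals of 4.87 and 4.52 were not well above background, at least 3.9-fold lower than in OG2-MEF (adjusted p = 3e-05).

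The third comparison asks where the induced cells differed from the ES line. Of the 29 tested members 5 changed, 1 higher and 4 lower in piPSC, where 8.65% of all genes changed (4.32% higher, 4.34% lower). The median difference was -0.16 over the tested members and -0.18 over all genes. Apex1 was 4.08-fold higher in piPSC (log2 2.03, SE 0.19, adjusted p = 0.0026), by 1.69 on its other probe, and by 2.27 and 1.78 without ES replicate 1 and 2. Brca1, Xrcc3, Brca2 and Chek1 were lower in piPSC, by -1.22 (SE 0.20), -1.17 (SE 0.20), -1.11 (SE 0.23) and -1.04 (SE 0.16), with adjusted p of 0.011, 0.012, 0.019 and 0.0088. For each of these 4 the 2 piPSC arrays lay below the 2 ES arrays. Such separation was not particular to these 4, since piPSC and ES did not overlap for 22 of the 29 tested members. The same held for 53 of 70 further repair and checkpoint genes. The share over all genes was not counted, so the separation is not read as a result about the members. Leaving out ES replicate 2 gave -1.03, -1.14, -0.92 and -0.89 for Brca1, Xrcc3, Brca2 and Chek1, the last pair under 2-fold. Leaving out piPSC replicate 1 ended the call for each of the 4, with adjusted p from 0.066 to 0.11, while the differences of Brca1, Xrcc3 and Chek1 stayed past 2-fold (-1.21, -1.06 and -1.15) and that of Brca2 was -0.81. Leaving out piPSC replicate 2 ended it for Brca1, Xrcc3 and Chek1, with -1.26, -1.30 and -0.95 and adjusted p from 0.073 to 0.078. Brca2 also lost its call without OG2-MEF replicate 1 or 2 (adjusted p = 0.061), at -1.13 and -1.12. The other probe of Brca2 was lower in piPSC by -1.10, which passed, and that of Chek1 by -0.82, which did not. The 7 recombination genes had differences from -1.22 for Brca1 to -0.16 for Rad54b, with a median of -0.90, and 3 of the 7 were called; of 18 further recombination genes tested 1 was called lower and 1 higher, with a median of -0.35.

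**Figure D3:**
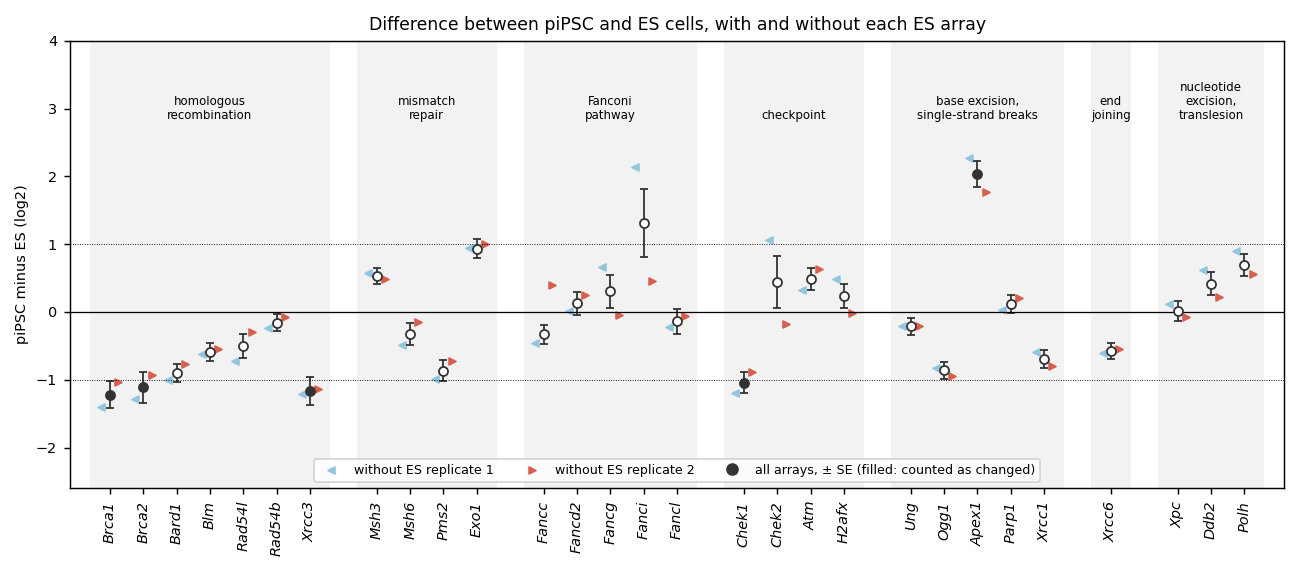
Difference of piPSC from ES in log2 units (vertical axis) for each tested member, with bars of 1 SE, and the value without ES replicate 1 or 2 as triangles. The 5 filled points were counted as changed: Apex1 at 2.03 and Brca1, Brca2, Xrcc3 and Chek1 between -1.22 and -1.04; Fanci and Chek2 shift most with the ES array left out.

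Fanci and Chek2 depended on which ES array was used. Without ES replicate 1 they were higher in piPSC by 2.14 and 1.06 and passed the test, and without ES replicate 2 the differences were 0.46 and -0.18. Bard1 passed, at -1.01, without ES replicate 1. Exo1 was not well above background in ES, and was at least 1.11-fold higher in piPSC. Its difference of 0.93 was under 2-fold, but it became 1.01, past 2-fold, without ES replicate 2. Ung, Parp1, Msh6, Rad54b, Fancd2, Fancl, Fancg, Xpc and H2afx differed by less than 0.33 on the log2 scale on the probes used, with adjusted p from 0.17 to 0.93.

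Probes of 1 gene did not always tell the same story in ES. Of the 14 tested members with several kept probes, all 14 had the same call on each probe for piPSC against OG2-MEF. For ES against OG2-MEF the probes of 8 of the 14 differed in call, and for piPSC against ES those of 6. Parp1 shows the contrast. The probe used lay at 12.61 and 12.79 in ES, another at 12.32 and 11.79, and the third at 6.48 and 4.42, where the piPSC arrays gave 9.06 and 8.93 on that last probe. The dim probe of Ung behaved likewise, at 8.42 and 8.50 in piPSC but 5.30 and 4.41 in ES, below or near its fibroblast levels of 5.64 and 5.26. For Xrcc6 the third probe read 7.52 and 7.16 in piPSC and 4.48 and 4.52 in ES, where it was not well above background, at least 4.48-fold lower. On such probes Parp1 and Ung were higher in piPSC than in ES by 3.54 and 3.60. One Msh3 probe was at least 2.69-fold higher, and of 2 Ddb2 probes one was at least 1.88-fold higher and the other higher by 1.01. They belong to the 11% of all 14533 kept probes called in that comparison, while the probe used for each of these 5 genes was not called. What is said above of piPSC against ES for these genes therefore holds for the probe named.

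**Figure D4:**
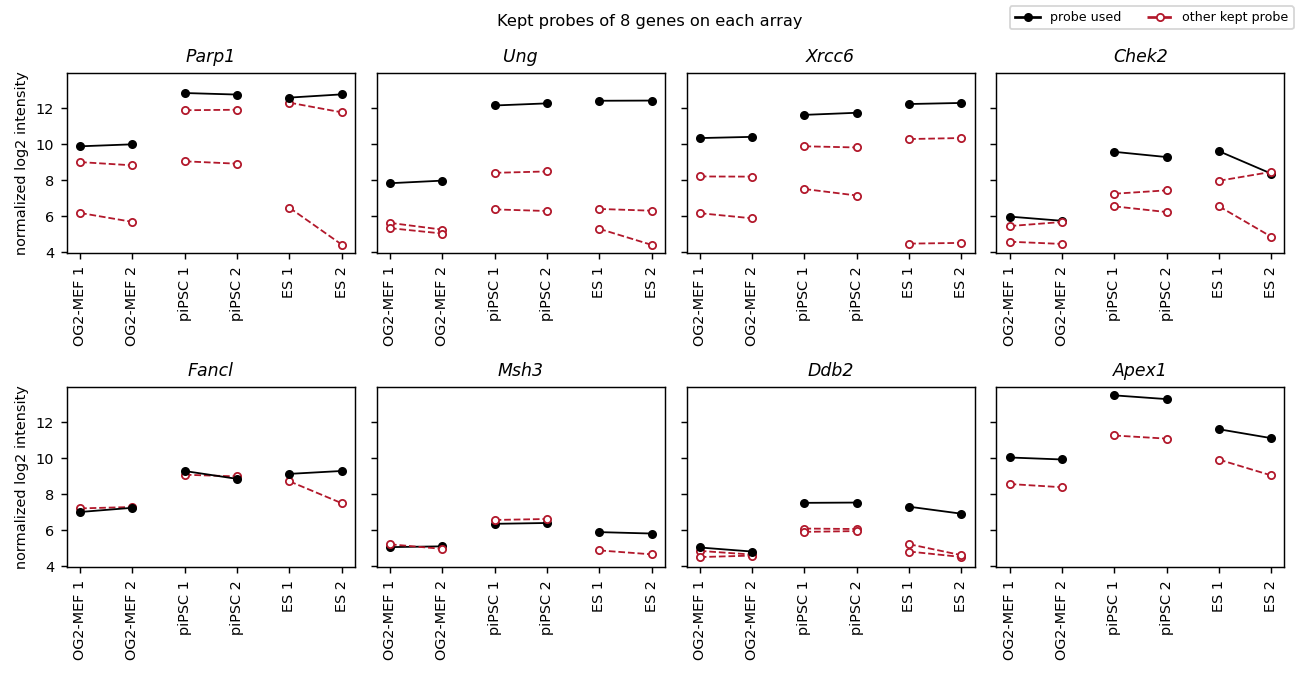
Normalized log2 intensity (vertical axis) of each kept probe of 8 members on the 6 arrays; black marks the probe used for the gene and red dashed lines its other kept probes. One Xrcc6 probe is below background on both ES arrays, and one probe each of Parp1 and Ung is near background on ES replicate 2 (4.42 and 4.41) and at 6.48 and 5.30 on ES replicate 1; both Apex1 probes place ES between OG2-MEF and piPSC.

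The wider repair and checkpoint genes moved less uniformly than the members. Both lists were chosen with earlier results of these data known, so this contrast is not read as a result about the machinery. Of 95 further genes, 70 were tested: 22 rose and 1 fell in piPSC (median 0.58), 30 rose and 3 fell in ES (median 0.87), and 2 were higher and 2 lower in piPSC than in ES. In piPSC 32.9% of these genes were called, against 41.4% of all genes, and 31.4% were higher, against 20%. In ES 47.1% were called, against 46.7%, and 42.9% were higher, against 25.1%. Base excision again held rises: Mbd4, a glycosylase for thymine opposite guanine, rose by 2.50 (SE 0.22) in piPSC and 3.02 in ES, and Mutyh, which removes adenine opposite oxidized guanine, by 2.30 (SE 0.20) and 3.11. Lig1, the ligase of replication and repair, rose by 2.32 (SE 0.16) in piPSC. Ube2t, the ubiquitin conjugating enzyme of the Fanconi pathway, rose by 2.13 (SE 0.24) and 2.55. In the checkpoint list Hus1 and Rad1, subunits of the clamp loaded at damage, rose by 1.15 and 1.22 in piPSC and by 1.72 and 1.35 in ES. Translesion polymerases divided: Poli rose by 2.55 (SE 0.16) in piPSC and 3.29 in ES, while Polk fell by 1.12 in piPSC and 1.56 in ES (SE 0.15). In end joining Prkdc, the kinase recruited by Ku, fell by 1.61 in ES (SE 0.25) and was 1.22 higher in piPSC than in ES (adjusted p = 0.019), a call lost when any array but ES replicate 1 was left out. Alkbh2, which reverses alkylated bases directly, rose by 1.84 (SE 0.17) and 2.90. Mgmt, which removes alkyl groups from guanine, rose by 1.48 in ES. Alkbh2 and the helicase gene Recql5 were lower in piPSC than in ES, by -1.06 and -1.21, calls lost without either piPSC array and, for Alkbh2, without ES replicate 2. Rpa2, of the single-strand binding complex, was higher in piPSC than in ES by 2.87 (SE 0.84), a call lost when any array but an ES array was left out. Rad51c, a recombinase paralog, rose by 2.87 in piPSC (SE 0.68), a call lost without piPSC replicate 2 or OG2-MEF replicate 1.

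Genes of the cell cycle moved with the repair genes in part. The summed level of 13 cell cycle markers was 17000 to 17090 in OG2-MEF, 39147 to 40771 in piPSC and 30086 to 40710 in ES. Of the 12 tested, 5 rose in piPSC and 6 rose and 1 fell in ES. In piPSC 41.7% were called, all of them higher, against 41.4% of all genes, of which 20% were higher. In ES 58.3% were called, against 46.7% of all genes, and 50% were higher, against 25.1%. The markers that rose in piPSC were replication genes. Mcm2, Mcm5 and Mcm6, subunits of the replicative helicase, rose by 2.55, 2.22 and 1.29. Pcna, the sliding clamp, rose by 2.06, and Tyms, of thymidylate synthesis, by 1.5. The mitotic kinase gene Aurka differed by -0.12 in piPSC and 0.40 in ES and was not called. Top2a, the topoisomerase of chromosome condensation, differed by 0.41 in piPSC and was not called either. Its ES difference of 0.18 averaged arrays that disagreed, at 11.99 and 10.17 against 10.90 and 10.91 in OG2-MEF. Mcm3, not called against OG2-MEF, lay at 8.76 and 8.35 there, 10.93 and 11.05 in piPSC, and 10.05 and 5.40 in ES. Cdk1 fell by 1.13 in ES, a call lost without ES replicate 2 or either OG2-MEF array, and did not change in piPSC (0.16). The part of cell cycle differences in the repair gene changes was not tested.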

How the data were processed

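The authors deposited linear intensity values of 25697 probes before normalization, each with a detection p-value per the file headers, and a matrix of log2 values. Recomputing the authors' deposited log2 values showed quantile normalization with no background correction, within 0.0012. The scanner software is not given in the sources used here. Background correction (normexp fitted through detection p, offset 16), quantile normalization and log2 used neqc of limma 3.58.1 in R 4.3.3. Probes took current symbols from the platform table through Entrez identifiers or accessions (23978 named; 1719 unnamed, kept as single features). A gene was represented by its kept probe of highest mean. limma (lmFit, eBayes) fitted 3 group means over 6 arrays with 3 residual degrees of freedom, and the script was tested on simulated data. The spread is shared by all groups, and ES arrays varied more (SD of the array difference 0.57, against 0.20 and 0.19), so p-values with ES may be too small. "At least N-fold" sets the dim group at the higher of its lowest detected signal and its own. Members and gene lists were chosen with earlier results of these data known. All members are accounted for, and of the wider list at most 3 called genes per pathway and comparison are named. Alternatives covered normalization, offset, scaling, filter, probe choice, thresholds, test, samples in the fit, a replicate block and each array left out.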

Additional observations from a re-analysis of the deposited data

Results flagged for a closer look

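For 5 members the change from the fibroblasts differed between piPSC and ES, by the test of that difference itself (limma, adjusted p under 0.05 and at least 2-fold). Apex1 stood 2.03 log2 units higher in piPSC than in ES, and rose from OG2-MEF in both. Brca1 stood at -1.22, Brca2 at -1.11, Xrcc3 at -1.17 and Chek1 at -1.04, each lower in piPSC. The causes of these differences were not tested.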

How the results depend on the processing

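Against the fibroblasts, the number of members changed stayed between 17 and 28 in piPSC (20 in the fit reported) and between 20 and 26 in ES (24) over the 18 alternatives. Calls that ended were Brca1, Chek1 and Msh3 in piPSC, and Atm, Fancc and Ogg1 in ES, on the authors' matrix and with an offset of 50. Median scaling ended Xrcc6 in piPSC and Fancc and H2afx in ES, and the mean of probes ended Atm, Ddb2, Fancc and Xrcc6 in ES. With no fold threshold, all genes changed rose to 7321 and 7868 and the wider list to 48 and 51. For piPSC against ES the 5 members became 3 on the authors' matrix, 2 with an offset of 50 and 3 under median scaling. They became 10 with every kept probe tested, 14 with no fold threshold and 1 under treat against 1.5-fold. The mean of a gene's kept probes gave 7, with Msh3, Parp1 and Ung gained and Chek1 lost. Left-out arrays gave 1 to 8. In that comparison all genes changed (930) became 614, 519, 2933 and 263 on the matrix, with the larger offset, with no fold threshold and under treat, and 151 to 1820 with an array left out. The wider list (4) became 2, 9, 20 and 0 with the larger offset, every probe, no fold threshold and treat, 2 with only the groups compared, and 0 to 12 with an array left out. At an unadjusted limma p under 0.05 the counts of 0 were 5 under treat and 17 and 21 without piPSC replicate 1 and 2. Leaving out an array of a group assumes that its lone array varies like the other groups.

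On the probe used, on the mean of probes and with an array left out, signs turned only for differences not called in the fit reported; single other probes of Xrcc6, Ung, Parp1, Fancc and Ddb2, genes that rose in ES, gave -1.53, -0.59, -0.49, -0.26 and -0.08 there. ES minus OG2-MEF became 0.060 (median scaling) and 0.23 (no detection filter) for Exo1, and -0.018 on the authors' matrix for Fancg. piPSC minus ES became 0.31, 0.39, 1.12 and 0.60 for Fancc, Fancl, Ung and Xrcc6 on the mean of a gene's kept probes. Of these, Ung was then called higher in piPSC (limma, adjusted p = 0.0064). Under median scaling Parp1 became -0.0037. With an array left out, ES minus OG2-MEF ranged from -0.23 to 0.23 for Exo1 and from -0.32 to 0.38 for Fancg. piPSC minus ES then ranged from -0.46 to 0.39 for Fancc, -0.0063 to 0.27 for Fancd2, -0.039 to 0.66 for Fancg, -0.36 to 0.077 for Fancl, -0.18 to 1.06 for Chek2, -0.011 to 0.48 for H2afx and -0.11 to 0.15 for Xpc. The causes were not tested. Median scaling moved the median of all genes from 0.02 to -0.18 in piPSC and from 0.15 to -0.06 in ES.

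Same-numbered arrays deviated together with correlations of 0.06, 0.25 and 0.01 between groups, and no label pairs them. With the replicate block 20, 24 and 5 members changed, the same genes as without it, and 4462, 5028 and 948 genes in all. Probes near background, such as those of Exo1, Fancg and Ogg1, limit what a difference can show.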

Other observations

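Differences between the 2 ES arrays reached single probes of the repair genes. Of 48 kept member probes, 6 were more than 2-fold brighter on ES replicate 1 than on ES replicate 2 (12.5%, against 6.55% of all 14533 kept probes), and 0 the other way. They belonged to Chek2 (2 probes), Fanci, Fancl, Fancc and Parp1, and the largest gap was 2.05 log2 units on the dimmest Parp1 probe. Within the OG2-MEF and piPSC pairs no member probe differed by more than 0.62 and 0.63.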
